A study of Saccharomyces cerevisiae with 14 samples.

Results

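HT4, a strain carrying a TAF1 construct, was compared with the construct strains DT1 and TF1 on 6 of the 14 arrays of the series. The 2 arrays whose titles end in HT4 (strain yjdi359) formed the first side of the comparison. The 4 arrays whose titles end in DT1 (strain yjdi355, 2 arrays) or TF1 (strain yjdi357, 2 arrays) formed the other side. The other 8 arrays held 2 each of PB1 (strain yjdi361), null (strain yjdi381), FHT-WT1 (strain yjdi353) and a homotypic pair of the reference strain with itself. The series asks how transcription of the yeast genome depends on the functional domains of TAF1. All strains were treated alike: growth in leucine-free medium with 3% raffinose to an OD600 of 0.7, 2% galactose for 30 min at 25 °C to induce the TAF1 constructs, and 45 min at 37 °C before harvest. The labels do not say what DT1, TF1 and HT4 change in TAF1, which promoter or plasmid drove them, or what TAF1 gene the cells still had, and they give no genotype beyond the strain names. No domain is assigned to them here. Nor do the labels say whether the 2 arrays of a strain came from separate cultures. A p-value here therefore covers spread among arrays only, and that spread may be technical.

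TAF1 is a subunit of TFIID, a general transcription factor. In TFIID the TATA-binding protein and its associated factors recognise core promoters and help to assemble RNA polymerase II. In budding yeast, genes for ribosomal proteins are a textbook group of genes that rely on TFIID. Many stress-induced genes have a TATA box and rely more on the coactivator SAGA, which shares several subunits with TFIID.

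Each array held PCR products of yeast genes and was hybridised with a strain and with the reference strain yjdi363 in opposite dyes. On array 1 Cy5 marked the strain, and on array 2 Cy3 did. The value of a gene is the log2 ratio of strain over reference, with each array centred on its median over named genes. That direction is not stated and was taken from TAF1, which lay at -3.52 and -3.46 on the null arrays. Between 6935 and 6971 features had a value on each array, and 5535 genes were tested. The FHT-WT1 and homotypic arrays had the narrowest ratios, and they entered the comparison of HT4 with DT1 and TF1 only through the estimate of each gene's spread. How the homotypic array 2 was turned is not stated, and its values were used as deposited, so the sign of the homotypic values is not settled. Signal over background was not used here, and the number of arrays limits the precision.

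TAF1 RNA did not separate the 3 strains. TAF1 lay at -0.27 and -1.06 on HT4 arrays 1 and 2, against -0.31 and -0.78 in DT1 and -0.15 and -0.82 in TF1. In all 3 strains array 2 was the lower, and the HT4 values overlapped the other 4. The difference of HT4 from the mean of DT1 and TF1 was -0.15 ± 0.18 (SE, n = 2 and 4 arrays), with an adjusted p of 0.825 (limma, Benjamini-Hochberg). Which part of TAF1 the PCR product covers is not stated, which limits what these values show. They lay above those of null, but the direction of the ratios was itself set by a low TAF1 in null. That order is therefore not a result.

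The 3 strains, and PB1 with them, shared marks that set them apart from the reference strain. MET17, an enzyme of sulfur assimilation, lay at 5.26 and 4.44 in HT4, against 4.97 and 4.80 in DT1 and 5.10 and 4.58 in TF1. It lay at 5.30 and 4.00 in PB1 and between -0.39 and 0.07 in null, FHT-WT1 and the homotypic pair. BUD6, an actin regulator of bud site selection, lay at 2.08 and 1.43 in HT4, against 1.81 and 2.05 in DT1 and 1.82 and 2.04 in TF1. It lay at 2.30 and 1.502 in PB1, 0.33 and -0.01 in null and 0.18 and -0.13 in FHT-WT1. Neither gene differed in HT4 beyond the spread, with differences of -0.01 ± 0.18 and -0.18 ± 0.19 (SE) and limma Benjamini-Hochberg adjusted p of 0.992 and 0.794. On arrays scaled to a common spread MET17 lay at -0.91, with an adjusted p of 0.9998 on all 14 arrays and 0.183 on the 6 (limma, Benjamini-Hochberg). MF(ALPHA)1, the alpha pheromone gene, lay at -2.73 and -2.08 in HT4, against -1.78 and -2.06 in DT1 and -2.65 and -3.02 in TF1. The 5 alpha-specific genes had a median difference of -0.03 and the 7 a-specific genes one of 0.10, with no member called. The median level of the alpha-specific genes was -1.95 and -1.11 in HT4, against -1.30 and -1.28 in DT1 and -1.78 and -1.44 in TF1. The alpha-specific median thus lay below the reference strain on all 6 arrays. It was below also in PB1 (-1.90 and -1.35), null (-1.55 and -0.84) and FHT-WT1 (-0.32 and -0.68). A low median was therefore not particular to the construct strains. For all 12 mating type genes the HT4 values overlapped those of DT1 and TF1.

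Of the 5535 genes, 2 were called higher in HT4 than in DT1 and TF1 (0.0361% of genes, limma, Benjamini-Hochberg adjusted p under 0.05), and 0 were called lower (0%). At an unadjusted p under 0.05 there were 290 genes higher (5.24%) and 274 lower (4.95%). Both called genes belong to the ERR family of 3 enolase-related genes. ERR1 and ERR2 rose in HT4, and ERR3 lay on the same side without passing the test.

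ERR1 (YOR393W), the fourth gene from an end of chromosome XV in the R64 annotation, encodes an enolase-like enzyme. It lay at 1.30 and 1.35 in HT4, against 0.58 and 0.23 in DT1 and 0.52 and 0.54 in TF1. Both HT4 arrays stood above all 4 others. ERR1 was 1.81-fold higher in HT4, a log2 difference of 0.86 ± 0.11 (SE, n = 2 and 4 arrays) with an adjusted p of 0.0181 (limma, Benjamini-Hochberg). It lay between -0.07 and 0.46 on the PB1, null, FHT-WT1 and homotypic arrays, below each DT1 and TF1 array except DT1 array 2 at 0.23. RNA came from whole cultures, so more transcript per cell and more cells with the transcript cannot be told apart.

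ERR2 (YPL281C), near an end of chromosome XVI, lay at 1.62 and 1.46 in HT4, against 0.79 and 0.15 in DT1 and 1.05 and 0.71 in TF1. The difference was 0.87 ± 0.12 (SE, n = 2 and 4 arrays), 1.82-fold, with an adjusted p of 0.0312 (limma, Benjamini-Hochberg). ERR3 (YMR323W), near an end of chromosome XIII, lay at 1.36 and 1.11 in HT4, against 0.57 and 0.36 in DT1 and 0.84 and 0.62 in TF1. Its difference of 0.64 ± 0.11 (SE) had an adjusted p of 0.108 (limma, Benjamini-Hochberg). All 3 genes had both HT4 arrays above the 4 others. The ERR genes are near-identical, and PCR products of near-identical genes can bind each other's transcripts, so the 3 features may read the same RNA and are not independent of each other.

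The difference appeared in each dye orientation. Among arrays with the strain in Cy5, HT4 minus the mean of DT1 and TF1 was 0.75 for ERR1, 0.70 for ERR2 and 0.66 for ERR3. Among arrays with the strain in Cy3 it was 0.97, 1.03 and 0.62 for the same genes in that order. HT4 array 1 and TF1 array 1 share the number at the start of their titles, and between these arrays alone the differences were 0.78, 0.57 and 0.52. With the strain in Cy3 no such match exists. There DT1 array 2 and TF1 array 2 share a title number, and HT4 array 2 shares its number with PB1 array 2. The call depended on single arrays. ERR1 was no longer called without HT4 array 2 (adjusted p 0.400), DT1 array 2 (0.117) or TF1 array 1 (0.163), at differences of 0.76 to 0.96 over the 6 omissions (limma, Benjamini-Hochberg). ERR2 was still called only without DT1 array 1 among these omissions, with adjusted p of 0.0157 to 0.400 (limma, Benjamini-Hochberg) and differences of 0.77 to 0.97.

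**Figure D1:**
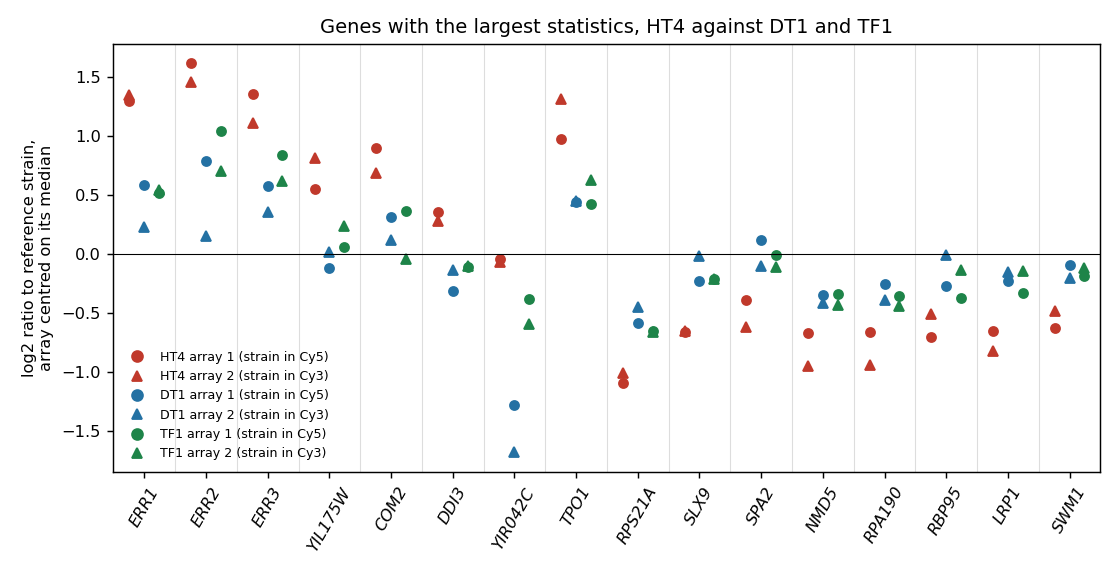
Log2 ratio to the reference strain (y axis, array centred on its median) for genes with the largest statistics (x axis) on each array of HT4, DT1 and TF1, with circles for arrays 1 (strain in Cy5) and triangles for arrays 2 (strain in Cy3). HT4 lies above for ERR1, with 1.30 and 1.35 against 0.23 to 0.58 on the DT1 and TF1 arrays, and below for RPS21A, with -1.09 and -1.01.

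The ratios on the HT4 arrays were also wider over all genes than those of DT1 and TF1. The median absolute deviation of gene ratios was 0.239 and 0.235 in HT4, against 0.189 and 0.178 in DT1 and 0.214 and 0.208 in TF1. Both HT4 arrays were wider than all 4 others. When all 14 arrays were scaled to a common median absolute deviation, the differences were 0.68 for ERR1 and 0.66 for ERR2, and 0 genes were called (limma, Benjamini-Hochberg), with 189 genes at an unadjusted p under 0.05. With the scaling done on the 6 arrays alone, an alternative chosen after the data were seen, the adjusted p was 0.183 for both genes (limma, Benjamini-Hochberg). Centring mattered as well, since in the deposited values the difference of the median gene was -0.14 on the log2 scale, lower in HT4. In those values ERR1 differed by 0.72 and ERR2 by 0.73, each with an adjusted p of 0.731, and 0 genes were called (limma, Benjamini-Hochberg). Without the dye term the adjusted p was 0.169 for ERR1 and 0.805 for ERR2 (limma, Benjamini-Hochberg). On quantile-normalised arrays the differences were 0.47 and 0.50, with an adjusted p of 0.9997 for each (limma, Benjamini-Hochberg).

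**Figure D2:**
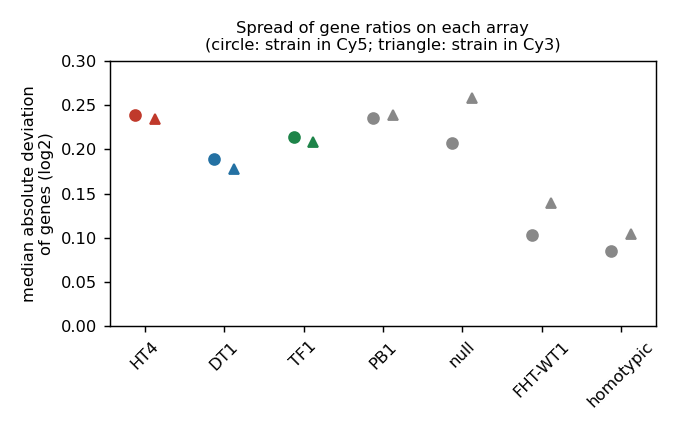
Median absolute deviation of gene log2 ratios (y axis) on each array, by strain (x axis), with circles for arrays 1 (strain in Cy5) and triangles for arrays 2 (strain in Cy3). HT4 arrays had 0.239 and 0.235, above DT1 with 0.189 and 0.178 and TF1 with 0.214 and 0.208, while the homotypic arrays had 0.0855 and 0.105.

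Set against each strain alone, more genes passed an unadjusted p under 0.05 for HT4 against DT1 than for HT4 against TF1. Against DT1, 3 genes were called higher (0.0542%) and 0 lower (limma, Benjamini-Hochberg), and 584 genes had an unadjusted p under 0.05 (5.38% of genes higher and 5.17% lower). Against TF1, 0 genes were called in either direction (limma), with 319 genes at an unadjusted p under 0.05 (3.43% of genes higher and 2.33% lower). The median absolute difference over all genes was 0.12 for HT4 against DT1 and 0.10 for HT4 against TF1. Between DT1 and TF1 themselves it was 0.08, with 0 genes called by limma and 115 genes at an unadjusted p under 0.05. The counts share the HT4 arrays, and whether HT4 lies farther from DT1 than from TF1 was not tested as such, beyond the DT1 against TF1 contrast.

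The 3 genes called against DT1 were ERR1, ERR2 and YIR042C. ERR1 was higher by 0.92 and ERR2 by 1.07, each with an adjusted p of 0.0191 (limma, Benjamini-Hochberg). Against TF1 the differences were 0.80 for ERR1 and 0.66 for ERR2, with adjusted p of 0.160 and 0.761 (limma, Benjamini-Hochberg). YIR042C, the gene next to an end of chromosome IX, lay at -0.04 and -0.07 in HT4, against -1.29 and -1.68 in DT1 and -0.38 and -0.59 in TF1. HT4 was thus near the reference strain, DT1 lowest, and TF1 between them. HT4 exceeded DT1 by 1.43 (adjusted p 0.0234, limma, Benjamini-Hochberg), and TF1 by 0.43 (adjusted p 0.848). The call of YIR042C against DT1 was lost in each of the 6 fits that left out 1 HT4, DT1 or TF1 array, with differences of 1.28 to 1.58 and adjusted p of 0.0625 to 0.595 (limma, Benjamini-Hochberg). It was also lost without the homotypic pair, without the dye term and with all 14 arrays scaled or quantile-normalised, with adjusted p of 0.0624, 0.1645, 0.636 and 0.127 (limma, Benjamini-Hochberg). ERR1 and ERR2 were called against DT1 in 4 of these 6 fits, all but those without HT4 array 2 or DT1 array 2. As deposited, ERR1 and ERR2 were not called against DT1 (adjusted p 0.269 and 0.0564, limma, Benjamini-Hochberg), while YIR042C was (0.00103). ERR1 and ERR2 also lost this call without the dye term, scaled and quantile-normalised (adjusted p 0.1645 to 0.9999, limma, Benjamini-Hochberg). Without the homotypic pair ERR1 lost it (0.0535) and ERR2 kept it (0.04505). For YIR042C, DT1 minus TF1 was -0.998 (adjusted p 0.468, limma, Benjamini-Hochberg). In the remaining strains YIR042C lay at 0.39 and 0.12 in PB1, 0.08 and -0.48 in null and -0.98 and -0.43 in FHT-WT1.

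Beside the called genes, the genes with the largest moderated statistics and no overlap between the sides are given as values. Above DT1 and TF1 these were ERR3, YIR042C, YIL175W, COM2, DDI3 and TPO1, with adjusted p of 0.108 to 0.122 (limma, Benjamini-Hochberg). TPO1, a plasma membrane exporter of polyamines, lay at 0.98 and 1.32 in HT4, against 0.44 and 0.45 in DT1 and 0.42 and 0.63 in TF1, a difference of 0.66. COM2, a zinc finger transcription factor, lay at 0.90 and 0.69 in HT4, against 0.31 and 0.12 in DT1 and 0.37 and -0.04 in TF1, a difference of 0.61. COM2 was higher still in PB1, at 1.22 and 0.83. DDI3, a cyanamide hydratase, lay at 0.36 and 0.28 in HT4, against -0.31 and -0.14 in DT1 and -0.11 and -0.10 in TF1. After centring, it was below the reference strain on the 4 DT1 and TF1 arrays and above it on both HT4 arrays. The sign on TF1 array 1, with a deposited median of 0.21, rests on the centring. From the sterol list, HMG2, an isozyme of HMG-CoA reductase, lay at 0.93 and 0.63 in HT4, against 0.32 and -0.01 in DT1 and 0.59 and 0.25 in TF1, also with an adjusted p of 0.122 (limma, Benjamini-Hochberg).

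Below DT1 and TF1 these were RPS21A, SLX9, SPA2, NMD5, RPA190, RBP95, LRP1 and SWM1, with differences of -0.40 to -0.52 and adjusted p of 0.122 to 0.242 (limma, Benjamini-Hochberg). RPS21A, a protein of the small ribosomal subunit, lay at -1.09 and -1.01 in HT4, against -0.58 and -0.45 in DT1 and -0.66 and -0.66 in TF1. RPA190, the largest subunit of RNA polymerase I, lay at -0.67 and -0.94 in HT4, against -0.25 and -0.39 in DT1 and -0.36 and -0.44 in TF1. SLX9, a factor of ribosome export and pre-rRNA processing, lay at -0.66 and -0.65 in HT4, against -0.23 and -0.02 in DT1 and -0.21 and -0.21 in TF1. For each of these 3 genes the reference strain was highest after centring, DT1 and TF1 lay below it and HT4 lay lowest. LRP1, an exosome cofactor in RNA processing, had a difference of -0.52, and NMD5, a nuclear import receptor, one of -0.43. SPA2, a scaffold of the polarisome at sites of polarised growth, had a difference of -0.48, and SWM1, a subunit of the anaphase-promoting complex, one of -0.40.

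No member of any of the 34 gene lists was called in HT4 against DT1 and TF1, so the lists are described by their medians and by arrays that do not overlap. Over all genes the median difference was -0.0009. Both HT4 arrays were above all 4 DT1 and TF1 arrays for 403 genes (7.28%) and below all 4 for 433 genes (7.82%).

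Cytosolic ribosomal protein genes lay lower in HT4 than in DT1 and TF1. Of 135 measured, 127 had a difference below 0, and the median was -0.20. The 135 include RPP1, a subunit of RNase P that shares the name pattern and is not a ribosomal protein. HT4 arrays did not overlap with the others and were lower for 43 of 135 (31.9%, against 7.82% of all genes), and for 0 of 135 were they higher. At an unadjusted p under 0.05, 28 were lower and 0 higher (4.95% and 5.24% of all genes). The list median itself was -0.86 and -0.66 on the HT4 arrays, against -0.59 and -0.41 in DT1 and -0.65 and -0.60 in TF1. It was -0.62 and -0.35 in PB1, -0.54 and -0.76 in null, -0.15 and -0.27 in FHT-WT1 and near 0 in the homotypic pair. The ribosomal protein RNAs thus lay below the reference strain in all construct strains, and HT4 array 2 at -0.657 lay next to TF1 array 1 at -0.653.

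Among the ribosomal protein genes, RPL16A of the large subunit lay at -0.72 and -1.13 in HT4, against -0.39 and -0.39 in DT1 and -0.34 and -0.71 in TF1. Its difference was -0.47, with an adjusted p of 0.25 (limma, Benjamini-Hochberg). The members ranged from -0.60 for RPS24A to 0.12 for RPL32. RPS24A had 1 outlying value, 0.72 on DT1 array 2, against -0.70 to -0.75 on the other DT1 and TF1 arrays and -1.08 and -0.84 in HT4. Most ribosomal protein genes have a near-identical paralog, so members of a pair may read the same RNA. The list median was -0.23 in the Cy5 orientation and -0.15 in the Cy3 orientation, and with arrays scaled to a common spread it was -0.07.

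Ribosome biogenesis factors had a median difference of -0.14 over 48 genes, with 41 below 0. For 7 of them (14.6%, against 7.82% of all genes) HT4 lay below without overlap. That median was -0.26 in the Cy5 orientation and -0.01 in the Cy3 orientation, so the gap was larger on arrays 1. RRP1, a factor of large subunit assembly, lay at -0.79 and -0.77 in HT4, against -0.25 and -0.29 in DT1 and -0.33 and -0.52 in TF1. CIC1, another factor of large subunit assembly, lay at -0.44 and -0.63 in HT4, against -0.05 and -0.11 in DT1 and -0.05 and -0.47 in TF1. Mitochondrial ribosomal proteins, encoded in the nucleus, had a median of -0.01 over 70 genes, near that of all genes. Proteasome subunits had a median of -0.09 over 37 genes, with 30 below 0. For 4 of them (10.8%, against 7.82% of all genes) HT4 lay below without overlap.

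General stress genes lay on the other side. Of 32 measured, 30 had a difference above 0, and the median was 0.33. At an unadjusted p under 0.05, 16 were higher and 0 lower, against 5.24% of all genes higher. Both HT4 arrays were above the 4 others for 6 of 32 (18.8%, against 7.28% of all genes), namely CTT1, GAD1, GPD1, MSN4, NTH1 and PHM7. The list median was 0.96 and 0.39 on the HT4 arrays, against 0.44 and 0.19 in DT1 and 0.80 and 0.31 in TF1. Of these strains HT4 was highest within each dye orientation, while array 2 of HT4 lay below array 1 of DT1 and TF1. The median was 0.69 and 0.38 in PB1, so array 2 of PB1 lay next to array 2 of HT4, and 0.67 and 0.27 in null.

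CTT1, cytosolic catalase, lay at 1.74 and 1.42 in HT4, against 0.65 and 0.63 in DT1 and 1.26 and 0.98 in TF1. Its difference of 0.70 ± 0.15 (SE) had an adjusted p of 0.172 (limma, Benjamini-Hochberg), and 0.0484 when only the 6 arrays entered the fit. MSN4, a transcription factor that induces stress genes, lay at 0.41 and 0.24 in HT4, against -0.17 and -0.35 in DT1 and -0.17 and -0.10 in TF1. After centring, HT4 was above the reference strain on both arrays and DT1 and TF1 were below it on all 4. On TF1 array 1 that sign rests on the centring, since the deposited median of that array was 0.21. NTH1, a trehalase, lay at 1.13 and 0.94 in HT4, against 0.69 and 0.43 in DT1 and 0.90 and 0.73 in TF1. TPS2, an enzyme of trehalose synthesis, lay on the opposite side at -0.27, with 0.42 and -0.13 in HT4, against 0.41 and 0.46 in DT1 and 0.54 and 0.25 in TF1. The stress list median was 0.32 in the Cy5 orientation, 0.23 in the Cy3 orientation and 0.20 with arrays scaled to a common spread.

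Heat shock chaperones, which the shift to 37 °C induces, had a median difference of 0.16 over 30 genes. Of them, 27 had a difference above 0, and for 0 of 30 did both HT4 arrays stand above the others. The median was 0.50 between arrays with the strain in Cy5 and -0.04 between arrays with the strain in Cy3. HSP42, a small heat shock protein, lay at 1.42 and 0.65 in HT4, against 0.39 and 0.42 in DT1 and 0.67 and 0.43 in TF1. SSE2, a nucleotide exchange factor of Hsp70, lay at 1.75 and 0.53 in HT4, against 0.75 and 0.23 in DT1 and 1.06 and 0.49 in TF1. For these genes the larger gap was on arrays 1. Glycolysis and fermentation genes had the same split, with a median of 0.16 over 22 genes, 0.33 in the Cy5 orientation and -0.04 in the Cy3 orientation.

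**Figure D3:**
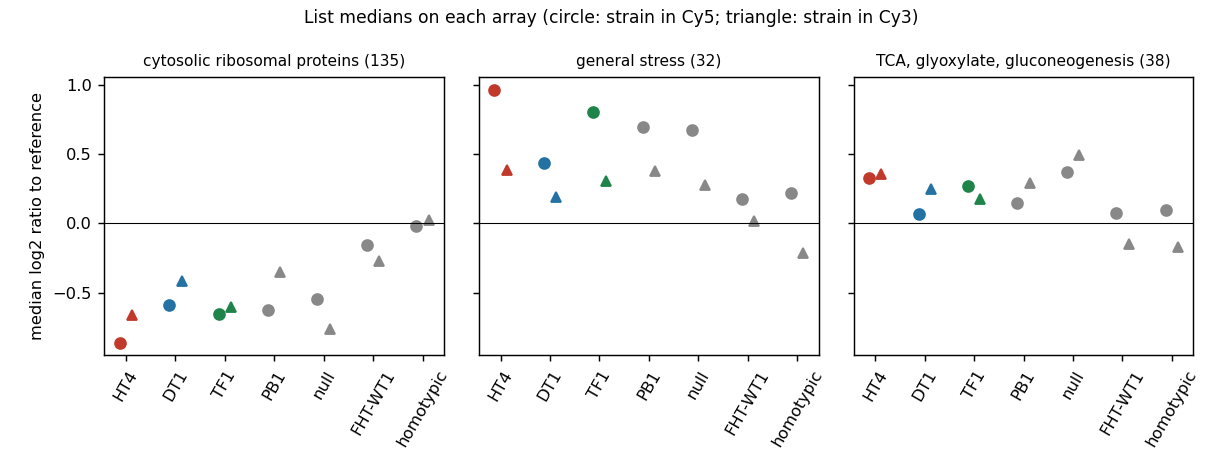
Median log2 ratio to the reference strain (y axis) of gene lists on each array, by strain (x axis). Circles are for strain in Cy5 and triangles for strain in Cy3. The lists are 135 genes named for cytosolic ribosomal proteins, RPP1 of RNase P among them, and 32 general stress genes. The last list is 38 genes of the TCA cycle, glyoxylate cycle and gluconeogenesis. The ribosomal protein median was -0.86 and -0.66 in HT4, against -0.59 and -0.41 in DT1 and -0.65 and -0.60 in TF1.

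Genes of respiratory carbon metabolism lay above DT1 and TF1 in both orientations. The 38 measured genes of the TCA cycle, glyoxylate cycle and gluconeogenesis had a median of 0.16, with 36 above 0. At an unadjusted p under 0.05, 7 were higher and 0 lower, against 5.24% and 4.95% of all genes. For 9 of the 38 (23.7%, against 7.28% of all genes) HT4 did not overlap and was above. These were ACH1, CIT1, CIT3, FUM1, IDH1, IDP2, KGD1, LSC1 and SDH3. CIT1, mitochondrial citrate synthase, lay at 0.90 and 1.16 in HT4, against 0.42 and 0.33 in DT1 and 0.80 and 0.24 in TF1. IDP2, cytosolic isocitrate dehydrogenase, lay at 1.06 and 0.97 in HT4, against 0.61 and 0.60 in DT1 and 0.88 and 0.44 in TF1. YAT1, a carnitine acetyltransferase, lay at 0.69 and 1.15 in HT4, against 0.14 and 0.40 in DT1 and 0.17 and 0.90 in TF1. The YAT1 arrays overlapped, although HT4 was highest within each orientation. The median difference of the list was 0.21 in the Cy5 orientation, 0.16 in the Cy3 orientation and 0.14 with arrays scaled to a common spread. Its median level was 0.32 and 0.36 in HT4, 0.14 and 0.29 in PB1, and higher in null at 0.37 and 0.49.

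Respiratory chain and ATP synthase genes encoded in the nucleus had a median of 0.09 over 35 genes. For 7 of them (20.0%, against 7.28% of all genes) HT4 was above without overlap. The median differed in sign between orientations, -0.05 with the strain in Cy5 and 0.26 with the strain in Cy3. NDE2, a mitochondrial NADH dehydrogenase that oxidises cytosolic NADH, lay at 0.77 and 0.78 in HT4, against 0.11 and 0.07 in DT1 and 0.23 and 0.60 in TF1. CYT1, cytochrome c1, lay at 0.48 and 0.88 in HT4, against 0.15 and 0.44 in DT1 and 0.14 and 0.29 in TF1. The adjusted p was 0.266 for NDE2 and 0.340 for CYT1 (limma, Benjamini-Hochberg).

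Sugar transport and sensing genes had a median of 0.20 over 25 genes. At an unadjusted p under 0.05, 6 were higher, against 5.24% of all genes. For 5 of the 25 (20.0%, against 7.28% of all genes) HT4 did not overlap and was above, namely HXT1, HXT4, MIG1, MIG2 and STD1. HXT4, a glucose transporter, lay at 0.89 and 0.71 in HT4, against 0.09 and 0.20 in DT1 and 0.29 and -0.05 in TF1. MIG2, a repressor in glucose signalling, lay at 0.46 and 0.85 in HT4, against 0.0032 and 0.15 in DT1 and 0.04 and 0.23 in TF1. STD1, a regulator of glucose-responsive genes, lay at 0.35 and 0.45 in HT4, against -0.30 and 0.21 in DT1 and 0.03 and 0.12 in TF1. Of HT4, DT1 and TF1, all 3 genes were highest in HT4 on both arrays. None passed the test, with adjusted p of 0.313 to 0.368 (limma, Benjamini-Hochberg). The list median level was 0.13 and 0.03 in HT4, against 0.21 and 0.06 in PB1 and -0.05 and 0.37 in null.

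The galactose regulon list had a median of 0.16 over 12 genes. It holds genes that take up and break down the inducing sugar, their regulators, and others such as FUR4 and PCL10. In it 3 genes were above without overlap (25.0%, against 7.28% of all genes), namely GAL2 and the regulators GAL4 and GAL80. GAL1, galactokinase, lay at 0.38 and 0.06 in HT4, against 0.20 and 0.12 in DT1 and 0.39 and -0.12 in TF1. GAL7, a galactose-1-phosphate uridylyltransferase, had a difference of 0.03 ± 0.14 and GAL10, the epimerase of the pathway, one of 0.22 ± 0.14 (SE). GAL2, the galactose permease, lay at -0.30 and -0.21 in HT4, against -0.55 and -0.55 in DT1 and -0.57 and -0.52 in TF1. GAL2 was below the reference strain on all 6 arrays, least so in HT4, with a difference of 0.30 ± 0.19 (SE) and an adjusted p of 0.623 (limma, Benjamini-Hochberg). LEU2, which cells need in leucine-free medium, had a difference of 0.09 ± 0.13, URA3 one of -0.01 ± 0.10, HIS3 one of 0.25 ± 0.15 and LYS2 one of -0.27 ± 0.11 (SE). The remaining auxotrophic and strain markers, TRP1, ADE2, CAN1, HO, RPL28 and MFA2, lay between -0.19 for RPL28 and 0.10 for MFA2.

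**Figure D4:**
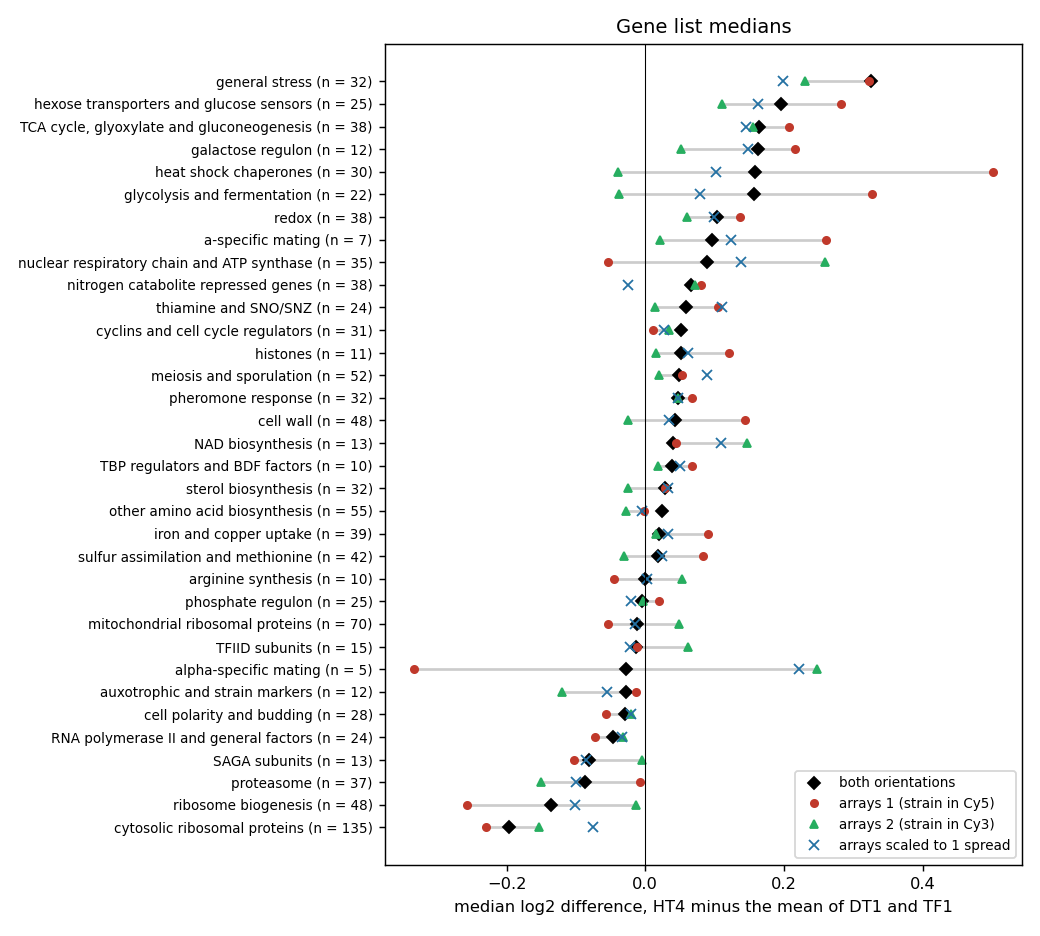
Median log2 difference of HT4 minus the mean of DT1 and TF1 (x axis) for each gene list (y axis, with the number of genes measured), for both dye orientations together, for each orientation and for arrays scaled to a common spread. With both orientations together, general stress genes have the highest median, 0.33, and cytosolic ribosomal proteins the lowest, -0.20. The order of the lists differs within each orientation and with arrays scaled.

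The lists of the transcription machinery had medians between -0.08 and 0.04. TFIID subunits had a median of -0.01 over 15 genes, SAGA subunits -0.08 over 13, and RNA polymerase II and general factors -0.05 over 24. The regulators of the TATA-binding protein, together with BDF1 and BDF2, had a median of 0.04 over 10 genes. HT4 lay below without overlap for 15.4% of SAGA genes and 16.7% of RNA polymerase II and general factors (7.82% of all genes). It lay above without overlap for 7.69% and 12.5% of these lists (7.28% of all genes). TAF8, a TFIID subunit, lay at 0.95 and 0.80 in HT4, against 0.48 and 0.46 in DT1 and 0.80 and 0.58 in TF1. TAF10, a subunit shared by TFIID and SAGA, lay at -0.13 and -0.21 in HT4, against -0.21 and 0.16 in DT1 and 0.16 and 0.02 in TF1. GCN5, the acetyltransferase of SAGA, had a difference of -0.22 ± 0.10 and ADA2, its partner, one of 0.23 ± 0.10 (SE). Adjusted p for these 4 genes were 0.457 to 0.586 (limma, Benjamini-Hochberg).

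Across the pathways that remain, list medians stayed between -0.03 and 0.10. In the pheromone response list, 5 of 32 genes were above without overlap (15.6%, against 7.28% of all genes). Among them was AXL1, at 0.29 and 0.53 in HT4, against 0.10 and -0.08 in DT1 and -0.17 and -0.12 in TF1. AXL1 encodes a protease that matures a-factor and marks haploid bud sites. AGA1, the anchor of the a-agglutinin, lay at 0.04 and 0.27 in HT4, against -0.33 and -0.22 in DT1 and -0.46 and -0.20 in TF1. BNR1, a formin of the cell polarity list, lay at -1.41 and -0.81 in HT4, against -0.58 and -0.29 in DT1 and -0.91 and -0.47 in TF1. The adjusted p was 0.280 for AXL1, 0.334 for AGA1 and 0.227 for BNR1 (limma, Benjamini-Hochberg). CAR2, ornithine aminotransferase of the nitrogen list, had a difference of 0.52, and CCW14, a cell wall glycoprotein, one of 0.42, neither called. The 52 genes of the meiosis and sporulation list had a median of 0.05, with 35 above 0 and 17 below. Of them, 7 were above without overlap (13.5%, against 7.28% of all genes) and 1 below (1.92%, against 7.82%), and none was called. IME1 and IME2, which start meiosis, were among the 17 below, with differences of -0.20 and -0.15.

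**Figure D5:**
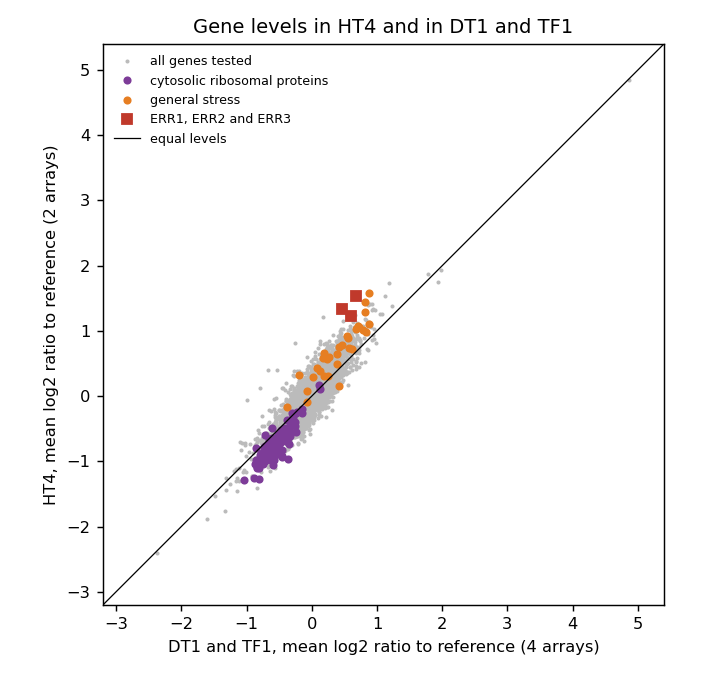
Mean log2 ratio to the reference strain in HT4 (y axis, 2 arrays) against that in DT1 and TF1 (x axis, 4 arrays) for each gene tested, with gene lists in colour and the line of equal levels. The ERR genes lie above the line, with means of 1.33 for ERR1 in HT4 against 0.47 in DT1 and TF1.

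The differences of 1 or more on the log2 scale were not those with the firmest statistics. GCD2, a translation initiation factor subunit, lay at 0.08 and 2.34 in HT4, against 0.19 and 0.19 in DT1 and 0.16 and 0.17 in TF1. Its difference of 1.03 came from HT4 array 2 alone. GTA1 and PAL1 lay at -0.91 and -0.08 on HT4 array 1 and both at 1.71 on HT4 array 2, with differences of 1.08 each. None was called, with adjusted p of 0.378 for GCD2, 0.572 for GTA1 and 0.577 for PAL1 (limma, Benjamini-Hochberg). DAN1, a cell wall protein of anaerobic growth, likewise lay at -0.32 and 1.13 in HT4, against -0.52 and -0.71 in DT1 and -0.29 and -0.61 in TF1.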

How the data were processed

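The deposited table gives a log2 ratio between the channels for each of 7056 features and 14 arrays. The authors normalised dye swap data by the mode and corrected them by Bacillus subtilis spikes added by culture density, per the labels; scanner files were not used here. Of the features, 5579 had a gene name, giving 5548 genes (5543 matched to R64). Features of a gene were averaged (30 genes), each array was centred on its median over named genes, and tests were run on 5535 genes, those without a missing value among the 14 arrays. limma 3.58.1 in R 4.3.3 (lmFit, eBayes) fitted 7 groups and a dye orientation term, two-sided, with Benjamini-Hochberg adjustment over 5535 genes and a threshold of 0.05 (6 residual and 5.98 prior degrees of freedom). The contrasts were HT4 minus the mean of DT1 and TF1, HT4 minus DT1, HT4 minus TF1 and DT1 minus TF1. The script was tested on simulated data. Genes named were TAF1, called genes, the next genes by moderated statistic without overlap up to 8 a direction, the 2 leading members of each list described, auxotrophic markers and GAL1, GAL2, GAL7 and GAL10. GAD1, GPD1, NTH1, PHM7, TPS2, CIT1, HXT4, RPS24A, RPL32, MET17, BUD6, GCD2, GTA1, PAL1 and other genes listed by non-overlap were chosen after their values were seen. The members and lists were chosen with earlier results of these data known. Alternatives covered centring, scaling, quantile normalisation, the dye term, the arrays fitted, the prior, filters, features and title number.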

Additional observations from a re-analysis of the deposited data

How the results depend on the processing

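Called counts moved with the processing, while ERR1 and ERR2 stayed above 0 in all settings run. For HT4 against DT1 and TF1 (2 called) the count was 0 for arrays as deposited, without the dye term, scaled, quantile-normalised, or scaled on the 6 arrays alone, and 8, all higher, in a fit of the 6 arrays alone. These were CTT1, ERR1, ERR2, ERR3, GRE1, YIL175W, YIR042C and YNL195C. For HT4 against DT1 (3 called) the counts were 3 as deposited (1 higher and 2 lower), 0 without the dye term, 11 on the 6 arrays, 1 without the homotypic pair, 0 scaled, 0 quantile-normalised and 1 scaled on the 6 arrays. For HT4 against TF1 and DT1 against TF1 (0 called by limma, 319 and 115 genes at an unadjusted p under 0.05) the deposited arrays gave 1 and 6, and the other settings that kept all 6 arrays gave 0. Leaving out 1 of the 6 arrays gave 0 to 9 for HT4 against both, 0 to 8 against DT1, 0 to 7 against TF1 and 0 to 8 for DT1 against TF1. For HT4 against both, the count was 9 without HT4 array 1, 5 without TF1 array 2, 4 without DT1 array 1, and 0 without HT4 array 2, DT1 array 2 or TF1 array 1. Against DT1 it was 8 without HT4 array 1, 5 without DT1 array 1, and 0 without HT4 array 2 or DT1 array 2. Against TF1 it was 4 without HT4 array 1 and 7 without TF1 array 2, and for DT1 against TF1 it was 4 without DT1 array 1 and 8 without TF1 array 2. Leaving out 1 of the other 8 arrays, added after seeing the data, gave 1 (either PB1 array) to 5 (either null array) for HT4 against both, 1 to 7 against DT1 and 0 for the rest. Where an array left out leaves a strain with 1, that array is assumed to vary like the other groups. ERR1 lay at 0.72, 0.86, 0.68 and 0.47 as deposited, without the dye term, scaled and quantile-normalised, with limma adjusted p of 0.731, 0.169, 0.9998 and 0.9997. The ribosomal protein median was -0.07 scaled or quantile-normalised, and the stress median 0.20 and 0.11. The cause of these moves was not tested.

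Of the genes whose difference was followed through the settings, 14 changed sign in some setting, none of them called. Their reported differences ran from -0.29 for STE3 to 0.22 for AGA2, both mating type markers. Other genes named above were not followed, among them GCD2, GTA1, PAL1, TPS2, CIT1 and HXT4. As deposited, GAL1 lay at -0.0706, GAL7 at -0.113, LEU2 at -0.0488 and MFA2 at -0.0361. With arrays scaled, on all or on the 6 arrays, LEU2 lay at -0.0093, MF(ALPHA)1 at 0.38, STE3 at 0.0213 and URA3 at 0.0076. Quantile normalisation put LEU2 at -0.0269, MF(ALPHA)1 at 0.16 and URA3 at 0.0049. The title number as a random block put GAL7 at -0.0157 and MET17 at 0.0601. Leaving out 1 of the 6 arrays gave -0.13 to 0.57 for AGA2, -0.40 to 0.0476 for BUD6, -0.12 to 0.10 for CAN1, -0.006 to 0.145 for GAL1, -0.16 to 0.21 for GAL7, -0.16 to 0.076 for HO and -0.0079 to 0.19 for LEU2. It gave -0.16 to 0.13 for MET17, -0.47 to 0.41 for MF(ALPHA)1, -0.18 to 0.39 for MFA2, -0.67 to 0.0864 for STE3, -0.41 to 0.11 for TAF1, -0.33 to 0.0414 for TRP1 and -0.077 to 0.0585 for URA3.

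The labels give the arrays no replicate numbers. Arrays were matched by dye orientation through the dye term of the reported fit. The title number as a random block (correlation 0.271) kept the counts at 2, 3, 0 and 0. A planned search of promoter motifs was not run, since no promoter sequence was used here.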

Other observations

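Genes near chromosome ends, a set chosen after the ERR genes and YIR042C had been seen, lay above the other genes in HT4. Of the 282 measured genes among the 10 next to a chromosome end in R64, both HT4 arrays were above all 4 DT1 and TF1 arrays for 42 (14.9%) and below for 11 (3.9%). Over the other 5230 genes with a place in R64 the shares were 6.79% above and 8.05% below. The median difference was 0.11 near the ends, with 0.14 in the Cy5 orientation, 0.07 in the Cy3 orientation and 0.13 with arrays scaled to a common spread. It was -0.0049 for the other genes. Without the PAU and ERR genes, 261 genes near the ends had a median of 0.09, with 31 above (11.9%). The reduced set still held YIR042C, its highest member at 0.93, which had been seen before the choice.

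The PAU family, seripauperin cell wall proteins of near-identical sequence at many chromosome ends, had a median difference of 0.26 over 23 genes. The median was 0.34 in the Cy5 orientation, 0.18 in the Cy3 orientation and 0.27 with arrays scaled. Of the 23 genes, 21 had a difference above 0 and for 9 (39.1%) both HT4 arrays were above the 4 others, and 0 were called (limma, Benjamini-Hochberg). PAU3 lay at 0.43 and 0.82 in HT4, against -0.03 and 0.33 in DT1 and 0.19 and 0.12 in TF1. PAU19 lay at 0.47 and 0.47 in HT4, against 0.03 and 0.01 in DT1 and 0.16 and 0.24 in TF1. PCR products of this family can bind each other's transcripts, so its members are not independent. What these sets share with the ERR genes beyond position was not tested. By whole chromosome, the median difference lay between -0.05 and 0.04.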
